A study of Mus musculus with 2 samples.

Results

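The variable (V) gene segments of the kappa light chain were followed in bone marrow of aged C57BL/6J mice that carried a transplanted gut microbiota. Members were all rows of the gene list whose symbol starts with Igkv, 160 of 31053 rows. They were read in barcodes within 3 limits: 1000 or more UMIs (unique molecular identifiers, 1 per captured transcript), 500 or more genes, and no more than 10% mitochondrial UMIs. All 160 were found in GENCODE vM21 on chromosome 6 of GRCm38, between 67555497 and 70704177, as 100 functional V genes and 60 pseudogenes.

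Both libraries came from aged mice of the C57BL/6J genotype. FMT-young mice had been transplanted with gut microbiota of young donors and FMT-aged mice with that of aged donors (FMT is faecal microbiota transplantation). There was 1 library per group, made with the 10x Genomics Chromium 3' chemistry, and the number of animals in each was not given in the sources used here. Sorted whole marrow was mixed with lineage-negative and lineage-negative cKit+ cells at 1:1:4, so shares of B and plasma cells depend on that mix.

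A B cell builds its kappa chain by joining 1 Igkv gene to 1 Igkj segment, upstream of the constant gene Igkc, and normally keeps that choice in all its descendants. Plasma cells, the antibody-secreting end stage, devote a large part of their mRNA to the heavy and light chain they inherited, so the Igkv gene with most UMIs in such a cell reads out its light chain. Igkv genes lie in both orientations along the locus, and those in the orientation of the J segments join by deletion, the others by inversion. A 3' library reads mostly the Igkc end of the transcript and rarely its V part, and junctions were not read here.

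The results below turn on 2 genes, so most of their V exon is printed, with the part that enters the third complementarity-determining region (CDR3) in capitals, from the conserved cysteine codon to the end of the gene. Igkv1-117 is shown for chr6:68121538-68121827 on the forward strand and Igkv6-15 for chr6:70406469-70406758 on the reverse strand of GRCm38, each 290 bases read 5′ to 3′ from GENCODE vM21 transcripts.
Igkv1-117: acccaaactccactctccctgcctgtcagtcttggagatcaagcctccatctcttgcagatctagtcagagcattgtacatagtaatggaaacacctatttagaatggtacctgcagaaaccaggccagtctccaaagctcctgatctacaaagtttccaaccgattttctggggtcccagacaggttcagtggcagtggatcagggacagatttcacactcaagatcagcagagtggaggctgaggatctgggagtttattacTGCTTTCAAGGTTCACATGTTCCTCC
Igkv6-15: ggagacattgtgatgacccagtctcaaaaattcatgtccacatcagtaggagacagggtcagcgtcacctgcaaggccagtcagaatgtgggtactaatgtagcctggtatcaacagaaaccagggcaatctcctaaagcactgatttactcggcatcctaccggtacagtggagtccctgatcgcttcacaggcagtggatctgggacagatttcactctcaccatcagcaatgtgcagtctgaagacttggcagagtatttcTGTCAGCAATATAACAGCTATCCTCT
Shown with them are the last 60 bases of the nearest copy of each, Igkv1-110 and Igkv6-13, and of 6 further genes named below for their change or their heavy chain partner. They lie on GRCm38 chromosome 6, Igkv1-110 at chr6:68271208-68271267 (forward), Igkv6-13 at chr6:70457501-70457560 (reverse), Igkv3-2 at chr6:70699008-70699067 (forward), Igkv14-126 at chr6:67896583-67896642 (forward), Igkv6-20 at chr6:70335841-70335900 (reverse), Igkv12-89 at chr6:68834846-68834905 (reverse), Igkv4-55 at chr6:69607275-69607334 (reverse), Igkv16-104 at chr6:68426013-68426072 (forward).
Igkv1-110: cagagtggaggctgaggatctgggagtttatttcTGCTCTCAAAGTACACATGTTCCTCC
Igkv6-13: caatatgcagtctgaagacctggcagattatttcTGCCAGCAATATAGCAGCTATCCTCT
Igkv3-2: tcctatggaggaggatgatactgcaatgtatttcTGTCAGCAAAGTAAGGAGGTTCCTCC
Igkv14-126: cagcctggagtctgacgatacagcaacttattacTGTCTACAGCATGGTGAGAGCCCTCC
Igkv6-20: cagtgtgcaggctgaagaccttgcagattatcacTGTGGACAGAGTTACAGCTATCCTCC
Igkv12-89: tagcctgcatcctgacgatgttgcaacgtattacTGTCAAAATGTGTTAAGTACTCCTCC
Igkv4-55: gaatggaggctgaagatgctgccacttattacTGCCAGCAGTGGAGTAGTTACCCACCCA
Igkv16-104: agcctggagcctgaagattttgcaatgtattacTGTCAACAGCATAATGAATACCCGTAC
The V-encoded end differed between all 10 genes shown, with 26 to 28 bases from the cysteine codon on. Over their last 290 bases Igkv1-117 and Igkv1-110 were 96.9% identical, and Igkv6-15 and Igkv6-13 were 95.2% identical. Of all 91-base stretches of Igkv1-117, 78.7% occurred in no other annotated transcript, against 100% for Igkv6-15, Igkv3-2 and Igkv14-126. Values of genes with fewer such stretches are less certain, since reads from near copies may have been split or dropped, which applies to Igkv6-20 with 42.8% and Igkv5-43 with 64.4%. The median functional gene was 94.3% identical to its closest relative.

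The libraries held 214982156 (FMT-young) and 207642851 (FMT-aged) UMIs in all. The barcode filter left 11932 and 11351 cells, which shared 34 barcode sequences, and removal of the highest doublet scores left 10793 and 10320. Igkv rows held 42746 and 13361 UMIs before that removal and 30482 and 9706 after it. Clusters were made without immunoglobulin genes and named from marker lists. Plasma cell-like cells numbered 1137 and 708, and each of 12 plasma cell markers was seen in 45.9% to 99.6% of FMT-young and 50% to 99.7% of FMT-aged ones. Mature B-like cells numbered 323 and 493, with 9 of 11 B cell markers in over 50% of cells in each library. No cluster was pro-B or pre-B-like. With 1 library per group no test between the groups can be made, and every interval below (95%) covers counting error only.

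In the cells before doublet removal 90 of the 160 rows had a UMI, 77 of the functional genes and 13 of the pseudogenes. FMT-young had 78 and FMT-aged 76, with 64 seen in both libraries. Pseudogenes held 47 and 19 UMIs. Seen functional genes were spread over the locus: 45 of the 56 that lie among the 80 rows nearest Igkj1, and 32 of the 44 farther ones. Of the 70 rows with no UMI, 23 were functional genes, and only 2 of these had under 50% of stretches of their own. A count of 0 allows up to 3 UMIs in a library.

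Igkv UMIs made up a larger part of the UMIs of plasma cell-like cells in FMT-young. They were 25611 of its UMIs, 1489 CPM (UMIs scaled to the same total in each class, interval 1471 to 1507), against 8645 in FMT-aged, 801 CPM (784 to 818), a log2 ratio of 0.89 (0.86 to 0.93). Plasma cell-like cells had a median of 19 Igkv UMIs in FMT-young and 9 in FMT-aged, and 13 and 42 cells had none. The constant gene differed little, at 385876 and 368177 CPM for Igkc (log2 ratio 0.07). There were 3.86 and 2.18 Igkv UMIs per 1000 Igkc UMIs, a number that varied with the Igkv gene used, as given at the end. The Igkv level counts reads of the V part, so it does not by itself measure the amount of kappa mRNA. The median UMI count per plasma cell-like cell was 13893 and 14406. The ratio was not the same in every cluster: in cluster 12, the only plasma cell-like cluster with over 100 cells of both libraries, Igkv stood at 958 and 903 CPM, a log2 ratio of 0.09.

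Each library's plasma cell-like cells were dominated by a different kappa gene. A leading gene was assigned to cells with at least 10 Igkv UMIs where 1 gene held at least 50% of them, which gave 888 FMT-young and 343 FMT-aged cells. Igkv1-117 led 789 of the FMT-young cells, 88.9% (86.6 to 90.8), and 2 of the FMT-aged cells, 0.583%. Igkv6-15 led 183 of the FMT-aged cells, 53.4% (47.9 to 58.7), and 3 of the FMT-young cells, 0.338%. The 5 cells led by the other library's main gene carried no barcode that both libraries held. Of the 32 barcodes still shared after doublet removal, 5 were plasma cell-like in FMT-young and 0 in FMT-aged.

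**Figure D1:**
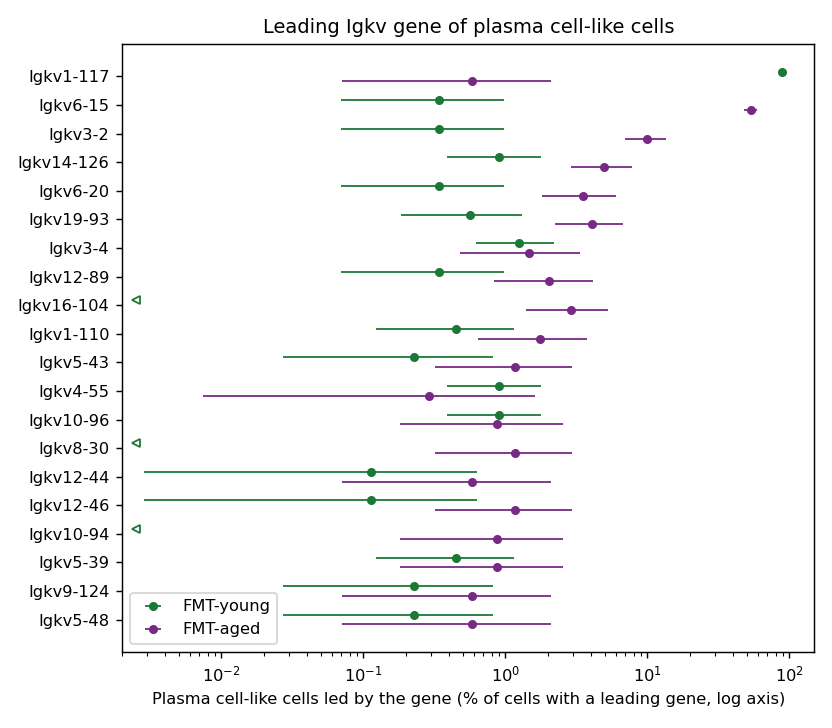
Share of plasma cell-like cells led by each of the 20 most used Igkv genes, as percent of the 888 FMT-young (green) and 343 FMT-aged (purple) cells with a leading gene, on a log axis with 95% exact binomial intervals of counting error; open triangles mark 0 cells. Igkv1-117 stands at 88.9% in FMT-young and Igkv6-15 at 53.4% in FMT-aged, and the other genes stay under 10%.

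Most plasma cell-like cells with 10 or more Igkv UMIs had 1 clear light chain gene. Such cells were 890 of 1137 in FMT-young and 348 of 708 in FMT-aged. At least 80% of Igkv UMIs came from 1 gene in 97.0% of FMT-young and 88.5% of FMT-aged cells with 10 or more Igkv UMIs. A second gene with at least 3 UMIs and 20% of the total was seen in 27 (3.03%) and 37 (10.6%) cells. The library's main gene was one of the pair in 18 and 27 of these cells. What these cells are was not tested.

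The repertoire beside the main gene was broad in both libraries. In all 33 genes led a cell in FMT-young and 39 in FMT-aged, 46 in either. Of these 26 were shared, 78.8% of the FMT-young and 66.7% of the FMT-aged list. The FMT-young list includes Igkv3-11, annotated as a pseudogene, which led 2 cells. Of its 91-base stretches 35.9% were its own, and whether its reads were assigned correctly was not tested. The effective number of genes, the count of equally used genes that would give the same chance of drawing 1 gene from a pair of cells, was 1.27 in FMT-young and 3.33 in FMT-aged. With the main gene of each library left out it was 23.9 over 99 cells and 12.9 over 160 cells. The order of the libraries was thus opposite with and without the main genes. In cluster 12 alone, with the main genes kept, the effective number was 12.3 in FMT-young and 2.62 in FMT-aged.

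The leading genes were not taken from 1 end or 1 orientation of the locus. Igkv1-117 lies far from the J segments, 2601 kb from Igkj1 and 136th in order, in the forward orientation of Igkc, and Igkv6-15 lies 315.6 kb away, 16th in order and reversed. With the main gene left out, cells led by 1 of the 80 nearest rows were 63 of 99 in FMT-young, 63.6% (53.4 to 73.1), and 88 of 160 in FMT-aged, 55.0% (46.9 to 62.9). Those 80 rows hold 56% of functional genes. Forward genes led 38 of 99, 38.4% (28.8 to 48.7), and 84 of 160 cells, 52.5% (44.5 to 60.4), and make up 38% of functional genes. The intervals of the libraries overlapped for both measures, but they treat cells as independent. Cells led by 1 gene often shared a heavy chain gene, as given below, so these intervals are too narrow. The FMT-aged interval for forward genes lay above 38%, and Igkv3-2 alone led 34 of those 84 cells. Counted as genes, 21 of 32 in FMT-young and 22 of 38 in FMT-aged were among the nearest 80 rows. Forward genes were 11 of the 32 and 15 of the 38.

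**Figure D2:**
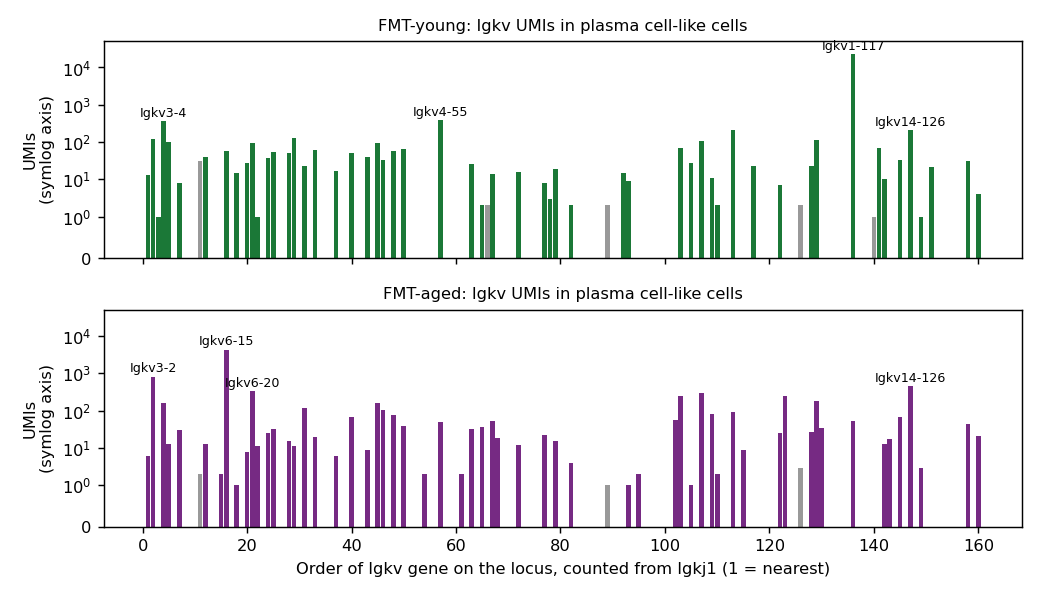
Igkv UMIs in plasma cell-like cells by gene order on the locus, counted from Igkj1, for FMT-young (top) and FMT-aged (bottom), on an axis that is linear up to 1 UMI and logarithmic above; grey bars are pseudogenes, and the 4 highest genes are named. Genes along the whole locus have UMIs in both libraries, with 22530 UMIs of Igkv1-117 in FMT-young and 4329 of Igkv6-15 in FMT-aged far above the rest.

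By UMIs the same 2 genes set the totals. Igkv1-117 had 22530 of 25611 Igkv UMIs in FMT-young plasma cell-like cells, 88.0%, and 53 of 8645 in FMT-aged, 0.613%, a log2 ratio of shares of 7.16 (6.78 to 7.58). Igkv6-15 had 59 UMIs, 0.230%, and 4329 UMIs, 50.1%, a log2 ratio of -7.76 (-8.16 to -7.39). Of 21 Igkv genes with at least 100 UMIs over both libraries, 4 were past 2-fold higher in share in FMT-young, 14 past 2-fold lower and 3 within 2-fold, with a median log2 ratio of -2.38. On CPM the counts were also 4 and 14, with a median of -1.48. Among all 7653 genes tested on CPM in these cells, 4.3% were past 2-fold, 1.59% higher and 2.7% lower, with a median of -0.16.

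These shares are parts of a whole, so a gene that takes 88.0% of 1 library lowers all others there. With Igkv1-117 and Igkv6-15 both left out, 3022 and 4263 UMIs remained over all other Igkv genes. Of the 19 genes of that size among these, 6 were higher, 6 lower and 7 within 2-fold in share of the remaining UMIs, with a median of -0.32. Of the 13 genes beside Igkv6-15 that were past 2-fold lower as shares of all Igkv UMIs, 6 were so among the remaining UMIs, and 7 were within 2-fold.

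Genes lower in FMT-young among the remaining UMIs included Igkv3-2, the second row from Igkj1. It had 120 UMIs in 36 FMT-young cells and 819 in 80 FMT-aged cells. These were 3.97% and 19.2% of the remaining UMIs (log2 ratio -2.27, -2.56 to -2.0). Igkv6-20 had 92 and 329 UMIs in 6 and 24 cells, 3.04% and 7.72% (-1.34). Igkv12-89 had 69 and 241 UMIs in 6 and 48 cells, 2.28% and 5.65% (-1.31). Igkv8-30 had 23 and 121 UMIs in only 3 and 6 cells, 0.761% and 2.84% (-1.90). These 4 were lower on every scale given here. In alternative settings they stayed lower, but the weakest log2 ratios were within 2-fold. These were -0.18 for Igkv3-2, -0.36 for Igkv6-20, -0.32 for Igkv12-89 and -0.92 for Igkv8-30. Cluster 24, with 12 FMT-young and 168 FMT-aged cells, held 582 of the 819 FMT-aged UMIs of Igkv3-2 and 222 of the 241 of Igkv12-89. UMIs within a cell are not independent, so genes seen in few cells are less certain. Igkv16-104 had no UMI in FMT-young and 246 in FMT-aged, where it led 10 cells. The 0 of 3022 remaining UMIs in FMT-young allow a share of up to 0.0993%, against 5.77% in FMT-aged.

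Genes higher in FMT-young among the remaining UMIs were led by Igkv4-55, with 384 and 49 UMIs in 67 and 10 cells. These were 12.7% and 1.15% (3.47, 3.04 to 3.93). Igkv3-4 had 373 and 160 UMIs in 26 and 6 cells, 12.3% and 3.75% (1.72). Igkv8-28 had 129 and 11 UMIs in only 7 and 2 cells (4.05). Igkv4-55 and Igkv8-28 were also higher as shares of all Igkv UMIs, at log2 ratios of 1.40 and 1.98. Igkv3-5 had 100 UMIs in 8 FMT-young cells and a log2 ratio of 1.38 on that scale. Igkv3-4 changed sign with the scale, from -0.35 as a share of all Igkv UMIs to 0.55 on CPM.

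Of the other much used genes, Igkv14-126 had 214 and 462 UMIs, 7.08% and 10.8% of the remaining ones (-0.61). Igkv19-93 had 109 and 296 UMIs, 3.61% and 6.94% (-0.95). Igkv1-110, the near copy of Igkv1-117, had 117 and 179 UMIs, 3.87% and 4.20% (-0.12), within counting error. Its reads cannot all be told apart from those of Igkv1-117, since 78.5% of its stretches were its own. All 3 lay within 2-fold on this scale but past it as shares of all Igkv UMIs, at -2.68, -3.01 and -2.18.

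Cells led by the main light chain gene of a library mostly carried the same heavy chain V gene. A heavy chain gene was assigned where a cell had at least 3 Ighv UMIs and 1 gene held at least 50% of them, as counted by the authors, with no check of near copies among Ighv genes. In FMT-young 629 of 638 such cells led by Igkv1-117 had Ighv1-19, 98.6% (97.3 to 99.4). In FMT-aged 145 of 153 such cells led by Igkv6-15 had Ighv1-26, 94.8% (90 to 97.7). Outside these cells the same heavy genes were uncommon: Ighv1-19 in 2 of 76 FMT-young cells led by another Igkv gene, and Ighv1-26 in 7 of 119 FMT-aged ones. Cells with too few Igkv UMIs for a leading gene followed the same pattern. The 39 such FMT-young cells with Ighv1-19 held 254 Igkv UMIs, 244 of them (96.1%) of Igkv1-117, and the 64 FMT-aged cells with Ighv1-26 held 438, of which 422 (96.3%) were of Igkv6-15. Whether cells with the same gene pair also shared a junction was not tested.

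Smaller groups differed in this. Of the groups led by another Igkv gene with at least 3 typed cells, 8 of 9 in FMT-young and 5 of 15 in FMT-aged had 1 heavy gene in over 50% of cells, while in 1 and 8 groups every cell had its own heavy gene. Igkv3-2 was with Ighv1-78 in 16 of 21 FMT-aged cells, Igkv4-55 with Ighv1-53 in 8 of 8 FMT-young cells, and Igkv3-4 with Ighv1-55 in 8 of 9 FMT-young cells. Igkv3-4 had another partner in FMT-aged, Ighv5-17 in 3 of 4 cells. The 3 cells led by Igkv6-15 in FMT-young had 3 different heavy genes, 1 of them Ighv1-26, and 5 FMT-aged cells led by Igkv1-110 had 5.

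There were 51 pairs in FMT-young and 76 in FMT-aged, and 6 of them occurred in both. Among the 6 was the main FMT-aged pair, Igkv6-15 with Ighv1-26, in 1 FMT-young and 145 FMT-aged cells. Of the 6 pairs, 3 were in at least 2 cells of each library, and these 3 were singled out after their values were seen. Igkv14-126 was with Ighv11-2 in 7 of 7 FMT-young and 12 of 12 FMT-aged cells. As background, these V genes form a pair known from mouse B-1 cells whose antibodies bind phosphatidylcholine. Igkv6-20 was with Ighv14-4 in 3 of 3 and 7 of 8 cells, and Igkv12-89 with Ighv1-55 in 3 of 3 and 6 of 6. The CDR3 ends of these 3 light chain genes are among the sequences above.

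**Figure D3:**
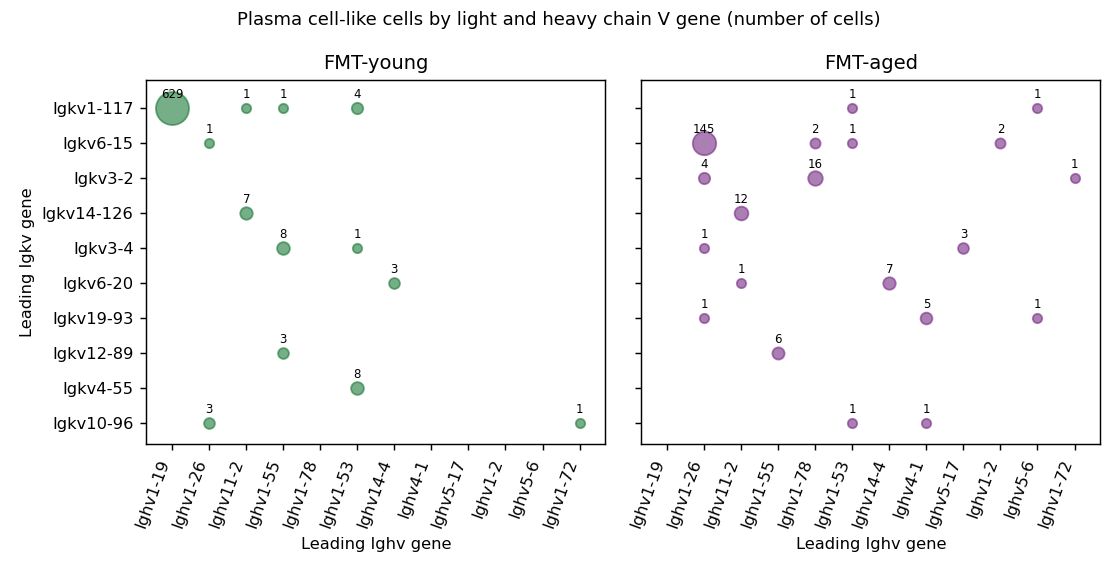
Number of plasma cell-like cells for each pair of leading Igkv gene (rows) and leading Ighv gene (columns) in FMT-young (left) and FMT-aged (right), for the 10 Igkv genes and 12 Ighv genes with most cells; larger circles hold more cells and each is labelled with its number. Igkv1-117 with Ighv1-19 has 629 cells in FMT-young and Igkv6-15 with Ighv1-26 has 145 in FMT-aged, while Igkv14-126 with Ighv11-2 appears in both, in 7 and 12 cells.

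The heavy chain class, taken from the constant gene with most UMIs, was IgM in nearly all of these cells. Of FMT-young cells led by Igkv1-117, 788 of 789 were IgM, and of FMT-aged cells led by Igkv6-15, 181 of 183. Cells led by other genes held more IgA, the class made for mucosal surfaces: 22 of 99 in FMT-young, with 74 IgM and 3 IgG, and 16 of 160 in FMT-aged, with 141 IgM, 1 IgG and 2 IgD. Igkv8-28 led 5 cells in FMT-young, 4 of them IgA, and Igkv1-110 led 4, 3 of them IgA. All 17 FMT-aged and 8 FMT-young cells led by Igkv14-126 were IgM.

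The 3 plasma cell-like clusters, made without any immunoglobulin gene, differed in their light chains. Cluster 8 had 901 FMT-young and 16 FMT-aged cells, and Igkv1-117 led 758 of its 772 FMT-young cells with a leading gene, 98.2%. Cluster 12 had 224 and 524 cells. There Igkv1-117 led 26 of 110 FMT-young cells, 23.6%, and Igkv6-15 led 180 of 294 FMT-aged cells, 61.2%. Cluster 24 had 12 and 168 cells, and Igkv3-2 led 25 of its 41 FMT-aged cells, 61.0%, followed by Igkv12-89 with 7 and Igkv14-126 with 6. The FMT-young share of Igkv1-117 thus depended on cluster 8, which held nearly only FMT-young cells. A cluster mostly of 1 library cannot be told apart from that library.

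Of 39 listed genes of kappa assembly and expression, 26 had at least 100 UMIs in plasma cell-like cells. None was past 2-fold higher in FMT-young and 4 were past 2-fold lower, with a median log2 ratio on CPM of -0.25. Among all 7653 genes tested there, 1.59% were higher and 2.7% lower, with a median of -0.16. Iglc1, a lambda constant gene, was at 2047 and 12276 CPM (-2.58), and Irf8, a transcription factor of B cell development, at 37.0 and 88.8 (-1.26). Xbp1, the regulator of the secretory programme of plasma cells, was at 1286 and 938 CPM (0.46), and Iglv1, a lambda V gene, at 159 and 118 (0.43), both within 2-fold. Cells with more lambda than kappa constant UMIs were 4 of 1137 in FMT-young, 0.352% (0.0959 to 0.898), and 30 of 708 in FMT-aged, 4.24% (2.88 to 5.99). A leading Igkv gene was found in 1 and 0 of them.

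Mature B-like cells held few Igkv UMIs. There were 85 in 47 of 323 FMT-young cells and 120 in 73 of 493 FMT-aged cells, 68.4 CPM (54.6 to 84.6) and 47.6 CPM (39.5 to 57.0), a log2 ratio of 0.52 (0.10 to 0.93). No Igkv gene reached 100 UMIs there, so none was compared by fold, while 5.52% of the 4580 genes that did were past 2-fold. At this depth a leading gene per cell, and an effective number of genes over cells, could not be given. Over UMIs, which are not independent within a cell, the effective number was 13 and 9.35.

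The genes seen in mature B-like cells were 25 in FMT-young and 30 in FMT-aged, and the plasma cell gene of each library had a smaller part. Igkv1-117 had 30 of the 85 UMIs in FMT-young, in 19 cells, 35.3% (25.2 to 46.4), and Igkv6-15 had 7 of the 120 in FMT-aged, 5.83% (2.38 to 11.6). A single cell held 9 of these 30 UMIs, and another 5 of these 7. Igkv6-15 had a like share in FMT-young, 5.88%, from 5 UMIs of 1 cell. In FMT-young Igkv1-117 stood at 24.1 CPM (16.3 to 34.5) in mature B-like cells and 26.4 CPM in all cells outside these classes. The latter level was 10.3 CPM (9.73 to 10.8) without the Jchain-rich clusters 15 and 27 described below. The remaining 55 and 113 UMIs were of other genes. For some of these 1 cell gave most of the count: 27 of 29 UMIs of Igkv3-2 in FMT-aged and 11 of 12 UMIs of Igkv4-55 in FMT-young.

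The other genes named here were spread over several B cells, with at most 3 UMIs in any of them. Igkv17-127 had 14 UMIs in 13 FMT-aged B cells, all in cluster 19, and 1 in FMT-young. Among the other kept FMT-aged cells it was almost absent, with 3 UMIs in plasma cell-like cells and 1 in all others. Before doublet removal, however, FMT-aged held 35 UMIs of Igkv17-127, so many lay in cells removed as doublets. Of its stretches 80.3% were its own, with Igkv17-121 its closest relative at 97.9% identity. Igkv12-89 had 10 UMIs in 10 cells and Igkv14-126 13 in 11 cells, again all in cluster 19 of FMT-aged. Igkv2-109 had 8 UMIs in 6 FMT-young and 8 in 7 FMT-aged B cells, but only 23 and 27 in all plasma cell-like cells and none in free RNA. The pseudogene Igkv14-126-1 had 6 UMIs in 5 FMT-aged B cells and none in plasma cell-like cells. Igkv12-46 had 2 and 4 UMIs.

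At finer clustering (resolution 2.0) 30 FMT-young and 156 FMT-aged cells were pro-B or pre-B-like, the stages at which the kappa locus is rearranged. Of these, 13 and 65 were mature B-like in the clusters above. They held 28 Igkv UMIs of 7 genes and 36 of 13 genes. In FMT-young 20 of the 28 were of Igkv1-117, and in FMT-aged 13 of 36 were of Igkv3-2.

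Cells outside the plasma cell-like and mature B-like clusters carried Igkv UMIs in both libraries, more in FMT-young. They include 17 FMT-young and 91 FMT-aged cells that were pro-B or pre-B-like at the finer clustering, with 23 and 22 Igkv UMIs. Over all such cells the level was 34.3 CPM (33.3 to 35.3) in FMT-young and 6.53 CPM (6.12 to 6.97) in FMT-aged, a log2 ratio of 2.39 (2.29 to 2.49). Free RNA, taken from barcodes with under 100 UMIs, held 1589 and 465 Igkv UMIs, 194 and 60.5 CPM, a log2 ratio of 1.68 (1.53 to 1.83). Plasma cell-like cells held 84.0% and 89.1% of all Igkv UMIs in kept cells.

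Part of that signal sat in 2 clusters named granulocyte-monocyte progenitor-like (GMP-like). In clusters 15 and 27 Jchain, the joining chain of IgM and IgA, was seen in 97.5% and 100% of cells. Cluster 15 had 607 FMT-young and 42 FMT-aged cells with 273 and 48.6 CPM, and cluster 27 had 98 and 25 cells with 489 and 380 CPM. Cells of cluster 27 had a median of 41886 and 46628 UMIs. Cells outside both clusters and outside the plasma cell-like and mature B-like clusters had far lower medians, 11785.5 and 12148.5. Whether the cells of clusters 15 and 27 are doublets with plasma cells that the doublet score missed was not tested. Without both clusters the levels were 13.4 and 3.32 CPM (log2 ratio 2.01). Without the remaining cells of 10 or more Igkv UMIs they were 10.3 and 3.16 CPM (1.70, 1.55 to 1.86).

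The cells outside the plasma cell-like and mature B-like clusters with 10 or more Igkv UMIs were 83 in FMT-young and 22 in FMT-aged, and they held 53.0% and 49.7% of the class's Igkv UMIs. Of these 69 and 21 were in cluster 27, and 62 and 13 were led by Igkv1-117 and Igkv6-15. Single cells set the level of some classes. In FMT-young 1 conventional dendritic-like cell held all 191 UMIs of Igkv5-43, of 316 Igkv UMIs in that class. In FMT-aged 1 basophil, eosinophil or mast cell-like cell held all 23 UMIs of Igkv6-20, of 42.

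Levels differed between the remaining classes, and some rested on few UMIs. Conventional dendritic-like cells had 82.2 CPM in FMT-young and 3.87 in FMT-aged, and the unnamed cluster 28 had 69.2 (17 UMIs) and 0. Plasmacytoid dendritic-like cells had 43.5 and 6.15, with 27 of the 40 FMT-young UMIs in 1 cell. The class of basophil, eosinophil and mast cell markers had 30.4 and 7.85, with 54 of its 88 FMT-young UMIs in 1 cell, and macrophage-like cells had 23.7 (13 UMIs) and 0. GMP-like cells outside those clusters had 13.6 CPM in FMT-young and 3.80 in FMT-aged (log2 ratio 1.84), HSC-like cells (haematopoietic stem cells) 10.9 and 3.55 (1.61), and MPP-like cells (multipotent progenitors) 7.65 and 2.81 (1.44). Monocyte-like cells had 6.70 and 2.42 (1.47), neutrophil-like cells 7.79 and 1.98 (1.97), and T, NK or innate lymphoid-like cells 24.7 and 3.96 (2.64). The intervals of the libraries did not overlap in any of these 6 classes. T, NK or innate lymphoid-like cells in FMT-young included 1 cell with 34 of their 97 Igkv UMIs.

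**Figure D4:**
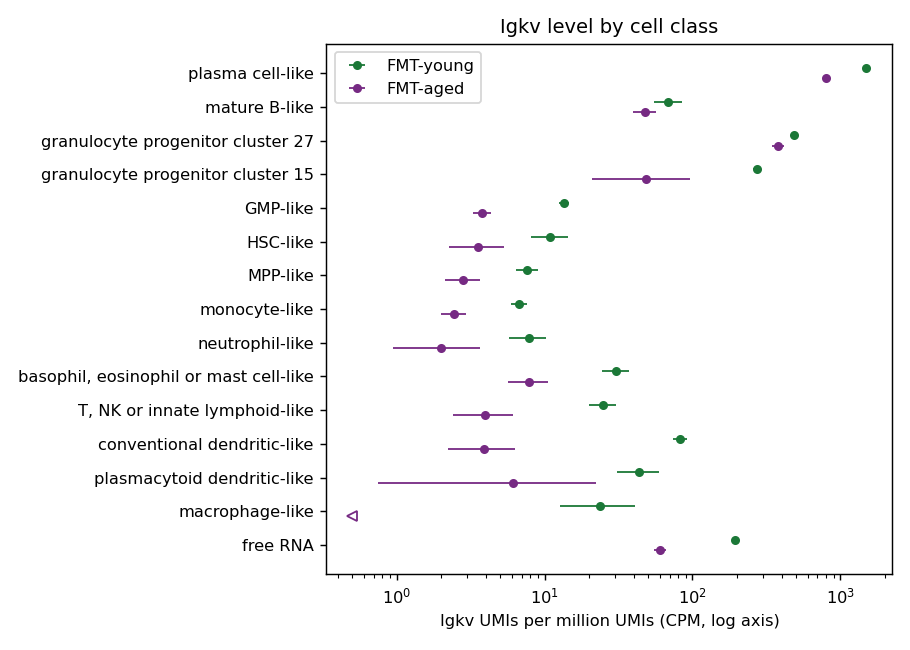
Igkv level in CPM by cell class and in free RNA (barcodes with under 100 UMIs), on a log axis, for FMT-young (green) and FMT-aged (purple), with 95% exact Poisson intervals of counting error; the open triangle marks 0 UMIs. Plasma cell-like cells stand at 1489 and 801 CPM, free RNA at 194 and 60.5, and HSC-, MPP-, GMP-, monocyte- and neutrophil-like cells between 1.98 and 13.6.

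The share of cells with an Igkv UMI depends on the depth per cell. It was 19.9% and 7.39% in GMP-like cells, with medians of 21417 and 24822 UMIs, and 8.06% and 2.95% in HSC-like cells, with 7030 and 7295. After thinning every cell to 1000 UMIs it was 4.83% and 1.25%, and 1.03% and 0.123%. Plasma cell-like cells had 98.9% and 94.1%, or 70.2% and 50.6% thinned. Mature B-like cells had 14.6% and 14.8%, or 4.33% and 4.06% thinned. In FMT-young that share was above 9 of the 10 other named classes, which ranged from 0.730% to 4.83% with a median of 1.57%, and below GMP-like cells and the 4.76% of the unnamed cluster 28. In FMT-aged it was above all 10, which ranged from 0 to 1.25%.

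Which Igkv gene was found in these cells followed the library's plasma cells in most classes. In FMT-young Igkv1-117 was 88.0% of Igkv UMIs in plasma cell-like cells and 85.8% in free RNA. It was 85.7% in HSC-like, 88.2% in MPP-like, 84.6% in GMP-like, 86.0% in monocyte-like and 89.8% in neutrophil-like cells. In FMT-aged Igkv6-15 was 50.1% in plasma cell-like cells and 50.3% in free RNA. It was 66.7% (44.7 to 84.4, 24 UMIs) in HSC-like, 50.9% in MPP-like, 54.8% in GMP-like and 49.1% in monocyte-like cells. Mature B-like cells, at 35.3% and 5.83%, did not share these proportions, and their intervals did not reach those of free RNA. Some other classes departed too. Igkv1-117 was 33.2% (28.1 to 38.7) in FMT-young conventional dendritic-like cells and 29.4% of 17 UMIs in the unnamed cluster 28. Igkv6-15 was 31.0% (17.6 to 47.1) in FMT-aged basophil, eosinophil or mast cell-like cells. In each of these classes 1 cell held most of the Igkv UMIs, of another gene. Over genes with a UMI in either, the counts in free RNA and in plasma cell-like cells had a Spearman correlation of 0.69 over 70 genes in FMT-young and 0.72 over 67 in FMT-aged, a description over genes of 1 library.

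**Figure D5:**
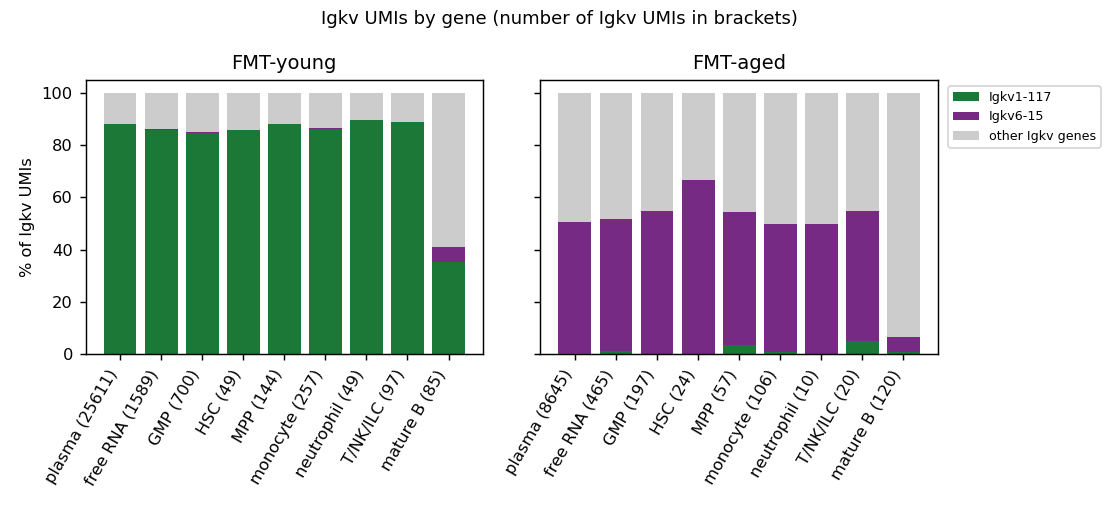
Percent of Igkv UMIs from Igkv1-117 (green), Igkv6-15 (purple) and all other Igkv genes (grey) in 8 cell classes and in free RNA, in FMT-young (left) and FMT-aged (right), with the number of Igkv UMIs in brackets. Igkv1-117 takes 84.6% to 89.8% of every FMT-young bar except mature B-like cells at 35.3%, and Igkv6-15 takes 49.1% to 66.7% of every FMT-aged bar except mature B-like cells at 5.83%.

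Each library also held traces of the other's main gene. Igkv6-15 had 59 UMIs in FMT-young plasma cell-like cells and 4 in its free RNA, and Igkv1-117 had 53 and 6 in FMT-aged. The 53 UMIs lay in 3 cells and the 59 in 9.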

How the data were processed

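Single-cell 3' libraries of 2 groups, 1 each, were analysed. The deposited matrices hold counts, not normalized, as UMIs for each gene in each barcode, and the deposited lists of genes and barcodes (unit other) hold names only. Cell Ranger and mm10 are named in the submitters' processing notes. Per the file headers the Cell Ranger version is 3.1.0. Whether counting used strand is not given in the sources used here. From these counts, barcodes with at least 1000 UMIs, 500 genes and at most 10% mitochondrial UMIs were called cells, and the top 0.8% per 1000 cells by a Scrublet-type score (30 principal components, 2 simulated doublets per cell) were removed as doublets, 1139 and 1031 cells.

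Cells of both libraries were clustered together (scanpy 1.11.5, leidenalg 0.10.2, Python 3.11.15) on 2000 variable genes without immunoglobulin genes, with 40 components, 20 neighbours and resolution 1.0. Clusters were named X-like from marker lists, needing at least 3 markers in 10% of cells at 1.5-fold. The type with most markers among the 10 leading genes was taken, or, in a tie or with none there, the one with the largest share of its markers passed. Cluster 9 (MPP-like, none there) and cluster 15 (GMP-like, tied with monocyte) were named so. A cluster stayed unnamed at low depth with no such marker, or where 2 types with 3 or more markers each tied at 1 leading marker. These thresholds were chosen after seeing the clusters. Names may differ from the study's own cell types, which were not used here.

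CPM are counts scaled to the same total in each class. Shares have Clopper-Pearson intervals, CPM exact Poisson intervals and ratios (FMT-young over FMT-aged) exact conditional binomial intervals, all at 95%, computed with scipy 1.17.1 and tested on simulated data. They treat UMIs as independent and cover counting error only. A prior of 0.5 was added in ratios where 1 library had no UMI. No test was made, since each group is 1 library, and cells were not treated as replicates.

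Named Igkv genes were the 10 most used in plasma cell-like and in mature B-like cells, up to 5 in each direction by interval bound among those with at least 100 UMIs, and 2 listed companion genes in each direction. Members, lists and rules were chosen with earlier results of these data known. Sequences and positions are from GENCODE vM21 (GRCm38). Alternatives covered doublets, filters, clustering, thresholds and scales.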

Additional observations from a re-analysis of the deposited data

How the results depend on the processing

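Of 120 alternative values of the main results, 93 kept their size and 27 moved. Most of them are counts, shares and effective numbers, which have no sign. The balance of genes past 2-fold and the order of the effective numbers did turn, as given below. Of 164 values for 14 single genes, 110 kept direction and size, 44 moved and 10 reversed. The cause of these moves was not tested, except where a gene or cluster was left out.

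The log2 ratio of the Igkv level in plasma cell-like cells (0.89) became 0.77 without doublet removal, 0.72 with classes by marker genes per cell and 0.086 in cluster 12 alone. That of other cells (2.39) became 2.51 without doublet removal, 3.05 with up to 20% mitochondrial UMIs, 2.50 from 2000 UMIs, 2.10 with classes by marker genes and 1.52 in cells with no UMI of Jchain and Mzb1. It became 2.01 without clusters 15 and 27, and 1.70 also without cells of 10 or more Igkv UMIs. The share of FMT-young cells led by Igkv1-117 (88.9%) was 82.9% from 3 Igkv UMIs per cell, 94.1% from 30, and 23.6% in cluster 12 alone. That of FMT-aged cells led by Igkv6-15 (53.4%) was 45% from 30 Igkv UMIs and 61.2% in cluster 12 alone. The effective number in FMT-young (1.27) was 23.9 with Igkv1-117 left out and the same with the top gene of each library left out. In cluster 12 alone, with all genes kept, it was 12.3. In FMT-aged (3.33) it was 12.9 without its top gene.

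Genes past 2-fold in plasma cell-like cells (4 higher, 14 lower in FMT-young) were 8 and 3 with Igkv1-117 left out and 13 and 42 with no minimum of UMIs. By interval bound 2 were higher, and in cluster 12 alone 3 were lower. In mature B-like cells 0 became 14 higher and 19 lower with no minimum.

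Single genes reversed as follows. Igkv3-4 (-0.35) was at 0.12 without doublet removal, 2.70 with Igkv1-117 left out, 0.98 by the mean of single cells, 0.55 on CPM and 2.51 in cluster 12 alone. With Igkv1-117 left out Igkv14-126 was at 0.37, Igkv1-110 at 0.87 and Igkv19-93 at 0.038, and in cluster 12 alone Igkv14-126 was at 0.17 and Igkv1-110 at 0.25.

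The settings with cluster 12 alone, without clusters 15 and 27, without cells of 10 or more Igkv UMIs and without each library's top gene were chosen after seeing the data. The effective number in mature B-like cells was not computed at the planned minimum, since 1 cell per library had 10 Igkv UMIs. The planned naming of 3 genes in pro-B and pre-B-like cells was not run, for want of such a cluster at resolution 1.0. No paired analysis was possible because each group has 1 library. Depth limits mature B-like cells most, with 85 and 120 Igkv UMIs.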

Other observations

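The light chain type of mature B-like cells differed between the libraries in 1 of the 2 clusters. Cells with more lambda (Iglc) than kappa (Igkc) constant UMIs were 89 of 323 in FMT-young, 27.6%, and 29 of 493 in FMT-aged, 5.88%. In cluster 19 they were 75 of 127, 59.1%, and 18 of 294, 6.12%. In cluster 20 they were 14 of 196, 7.14%, and 11 of 199, 5.53%. No difference was tested, since each group is 1 library, and Igkc UMIs from free RNA reach every class.

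The number of Igkv UMIs per 1000 Igkc UMIs varied with the leading gene of plasma cell-like cells. It was 4.32 for Igkv1-117 in FMT-young, 2.47 for Igkv6-15 and 1.76 for Igkv3-2 in FMT-aged, and 4.98 for Igkv16-104 in FMT-aged.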
